A study of Gossypium hirsutum with 30 samples.

Results

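Ovules of the fuzzless-lintless (fl) mutant of cotton, Gossypium hirsutum, were set against fibre-bearing ovules of the wild type (WT), cv. MCU5, at 15 days post anthesis (dpa). This comparison uses 6 of the 30 arrays of the series, namely 3 of fl mutant ovules and 3 of WT ovules, picked by the stage and genotype in their labels. The fl mutant arose spontaneously in MCU5 and is a near-isogenic line kept as pure stock, so both genotypes are of MCU5 descent, and how far they differ beyond the fl lesion is not given in the sources used here. All plants stood in the field without treatment. Flowers were tagged at anthesis, bolls were frozen at harvest, and total RNA of ovules was hybridised to Affymetrix cotton GeneChip arrays. The series also has arrays of 0, 5, 10 and 20 dpa, of which those of 0 and 10 dpa serve below as earlier stages for comparison. WT ovules carry their fibres and fl mutant ovules do not, so fewer fibre cells on an ovule and less of a transcript in each cell cannot be told apart.

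A cotton fibre is a single epidermal cell of the ovule that grows out without dividing. At 15 dpa a WT fibre is late in its elongation: turgor stretches a primary wall of pectin, xyloglucan and cellulose that expansins and xyloglucan enzymes loosen, while very long chain fatty acids, wax and lipid transfer proteins serve the cuticle and membranes of the growing surface. Cellulose synthases of the secondary wall then take over, and the wall thickens. The rest of the ovule, with its seed coat and embryo, is present in both genotypes.

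The probes on the array are not given in the sources used here, but the study designed qRT-PCR primers to 28 of the transcripts. Those of 7 of the transcripts on which the results turn are printed 5′ to 3′, in lower case with the last 5 bases, from which the polymerase extends, in capitals. All of these primers are 24 bases long with a GC content of 50%. The first 3 pairs belong to transcripts that were higher at 15 dpa and the last 4 to transcripts that were lower.
RRTF1 forward: taacaacatcagcagcagcAGCAC
RRTF1 reverse: tcatcttcgcccattccatCCCAA
AT1G19210 match forward: tgggataaatcaaggcgttTGGCG
AT1G19210 match reverse: atacacaggaagatggcacCTCCA
EXO forward: taaccatcccttccagaccCACAT
EXO reverse: ccattccaccaacccatctACAGT
CYP87A2 forward: acgaactatgttccctcccTTGAC
CYP87A2 reverse: gaacttcatgccatttggaGGAGG
FLA6 forward: acccttaaccgctgctttaGGACT
FLA6 reverse: aatgtgacgaccggagtggTGAAT
alpha-expansin 1 forward: taccttaacggccaaagccTCTCT
alpha-expansin 1 reverse: agtttgtccgaattgccaaCCAGC
fibre protein GLP1 forward: agaagacagccaccgaagaTGACT
fibre protein GLP1 reverse: tgaaatgccgagtccgttaACACC

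The deposited log2 values are centred so that 0 is the middle of the 6 arrays of a stage for every probe set. They therefore show by how much the genotypes differ but hold no expression level, and whether a marker is present at all in either genotype cannot be read from them. Log2 folds are fl mutant minus WT, with the standard error (SE) and the limma p-value adjusted over all 24029 probe sets tested, and n = 3 arrays per genotype throughout. Differentially expressed transcripts (DETs) are those with an adjusted p of 0.01 or less together with a fold of 3 or more in either direction. The arrays of 1 genotype lay close together: the SD of the difference between 2 replicates over all probe sets was 0.172 to 0.175 for the fl mutant and 0.168 to 0.184 for WT, against 0.685 to 0.693 between an fl mutant and a WT array.

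At 15 dpa 824 of the 24029 probe sets (3.43%) were DETs, of which 366 (1.52% of those tested) were higher in the fl mutant and 458 (1.91%) were lower. The lower DETs had the larger folds, with a median log2 fold of −2.48 against 2.30 for the higher ones, and 71 lower and 47 higher DETs passed a fold of 16. The median over all probe sets was −0.01. The 3 arrays of the genotypes did not overlap for any of the 824 DETs, as was also so for 54.8% of all probe sets, and within a genotype the replicates of a DET spanned 0.26 in the median and 1.14 at most. Lower DETs were the majority (55.6%) at a fold of 3 but not at a fold of 2, where 870 were higher and 866 lower.

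The genotype labels were checked first against transcripts known from cotton fibres. Of 24 probe sets for fibre markers, 18 were lower in the fl mutant, none was higher, and their median log2 fold was −3.27. Their summed centred log2 values were −40.6 to −39.5 in the fl mutant arrays and 38.7 to 39.0 in the WT arrays, so that every array stood with its own label. All 24 probe sets come from the study's tables of transcripts called different at some stage of this series, so the check was not independent. The fibre protein GLP1, a germin-like wall protein, had −2.32, −2.19 and −2.14 in the fl mutant and 2.14, 2.22 and 2.24 in WT. Its log2 fold was −4.42 (SE 0.0614, adjusted p = 8.45e-08). The acyltransferase-like protein ACY, whose Arabidopsis match acts in cutin formation, stood at −2.19, −1.95 and −2.31 in the fl mutant and at 1.95, 2.16 and 2.03 in WT, a log2 fold of −4.20 (SE 0.104, adjusted p = 5.20e-07). RD22-like protein RDL, a BURP domain protein of the fibre wall, was lower by 3.03 on the log2 scale (SE 0.0443). Of the other probe sets matched to RD22 some fell likewise, but 2, picked after their values were seen, went the other way at 3.23 (SE 0.0547) and 3.20 (SE 0.0486).

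**Figure D1:**
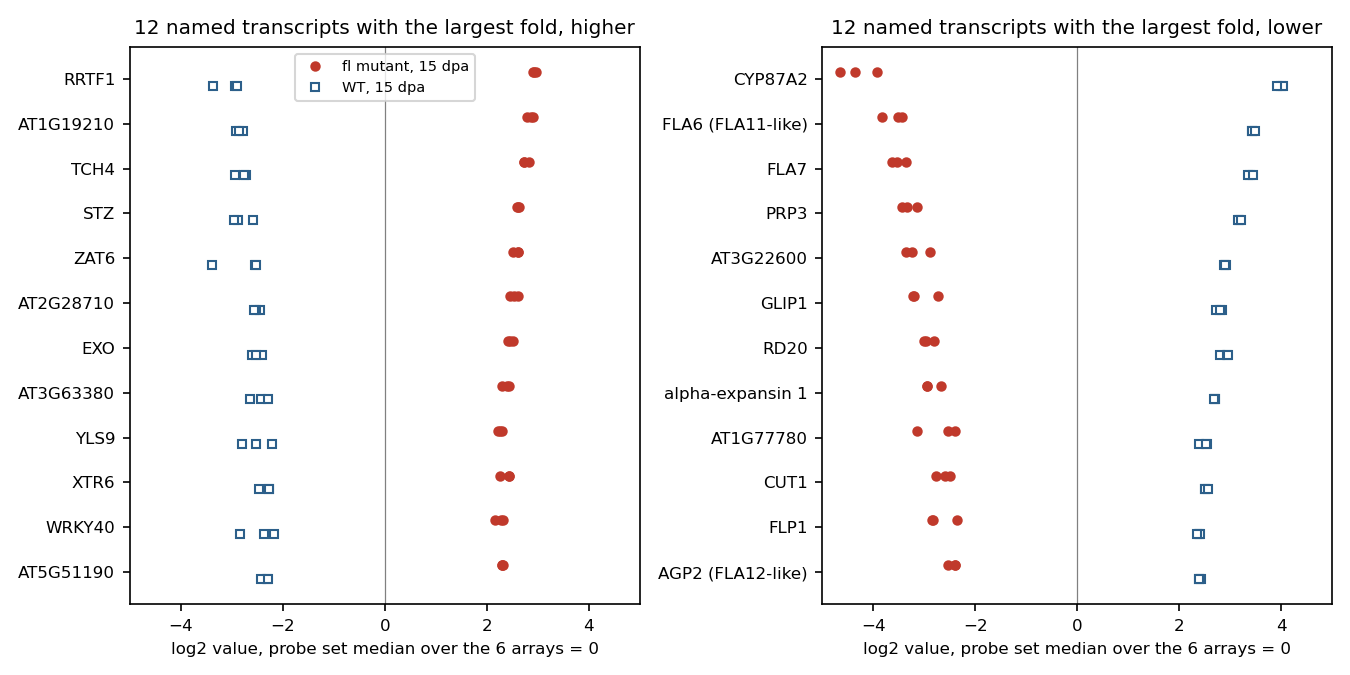
Centred log2 values of each of the 3 fl mutant arrays (filled red points) and the 3 WT arrays (open blue squares) at 15 dpa for 24 named transcripts, the 12 that rose most on the left and the 12 that fell most on the right. Zero is the middle of the 6 arrays. No fl mutant array overlaps a WT array in any of the 24 transcripts, and CYP87A2 has the widest gap.

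The largest fall of all belonged to CYP87A2, a cytochrome P450 that the study's hormone lists place with brassinosteroid genes. Its values were −4.36, −3.93 and −4.65 in the fl mutant and 3.99, 4.04 and 3.93 in WT, a 314-fold difference (log2 −8.30, SE 0.172, adjusted p = 2.63e-07). The genotypes had not differed in it at 10 dpa (−0.42) or 0 dpa (0.16) by enough to be called. Next came cell surface glycoproteins of the arabinogalactan class, which anchor in the plasma membrane or wall. FLA6, a fasciclin-like protein matched to Arabidopsis FLA11, had −3.43, −3.82 and −3.51 in the fl mutant and 3.44, 3.43 and 3.49 in WT. That is 132-fold (log2 −7.04, SE 0.103, adjusted p = 8.67e-08), and a second FLA6 probe set gave −6.92 (SE 0.0525). FLA7 followed at −3.53, −3.64 and −3.36 in the fl mutant and 3.39, 3.36 and 3.46 in WT (log2 −6.92, SE 0.077, adjusted p = 4.24e-08). FLA7 is here the name of the Arabidopsis match, which the study's text pairs with cotton FLA3. Both FLA6 and FLA7 lay within 0.5 of zero at 0 and 10 dpa, unlike arabinogalactan protein 2 (AGP2, matched to FLA12), which was at −4.84 (SE 0.0526) at 15 dpa and at −6.72 at 10 dpa. Of the 15 arabinogalactan probe sets in the study's wall lists 7 fell, 7 were not called and 1 rose, with a median of −1.58. The one that rose was AGP31 at 2.97 (SE 0.0484), a protein of the vascular wall in Arabidopsis. All the lists of the study, among them those of hormones, heat shock proteins, photosynthesis and mitochondrial electron transport, were compiled from these same arrays. The lists built here from annotation words hold only probe sets that the study's tables give as different at some stage. Counts in either kind of list are no independent evidence of a direction.

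Proline-rich proteins, which are cross-linked into the wall, fell in all 3 probe sets listed. PRP3 had −3.34, −3.44 and −3.15 in the fl mutant and 3.18, 3.15 and 3.22 in WT (log2 −6.50, SE 0.079, adjusted p = 5.83e-08), close to its −6.23 at 10 dpa.

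Proteins that loosen the primary wall split between the directions. Among 19 expansin probe sets 4 fell and 3 rose, and the median was −0.13. Alpha-expansin 1 (EXPA8 in Arabidopsis), the expansin of elongating cotton fibres, had −2.95, −2.94 and −2.68 in the fl mutant against 2.71, 2.70 and 2.68 in WT, a 47.0-fold difference (log2 −5.55, SE 0.0789, adjusted p = 8.45e-08). EXPA4 fell by 1.88 on the log2 scale (SE 0.0398). EXPA5 and EXPA10 rose by 2.73 (SE 0.121) and 1.91 (SE 0.107), while neither had been called at 0 or 10 dpa.

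Xyloglucan endotransglucosylase/hydrolases (XTHs), which cut and rejoin the tethers between cellulose fibrils, showed the same divide on a larger scale. Of 25 xyloglucan enzyme probe sets 11 rose, 6 fell and 8 were not called, with a median of 0.86. TCH4 (XTH22), induced by touch in Arabidopsis, stood at 2.82, 2.74 and 2.73 in the fl mutant and at −2.73, −2.77 and −2.93 in WT. This is 47.7-fold (log2 5.58, SE 0.0656, adjusted p = 5.65e-08), and a second probe set was at 4.72 (SE 0.105). Of all 8 TCH4 probe sets 5 rose and none fell, with a median of 3.08, but these probe sets may share sequence and 3 were not called. XTR6 (XTH23) rose by 4.71 (SE 0.0772), and XYL4, a xylosidase, and XTH32 rose by 2.12 (SE 0.0567) and 2.09 (SE 0.134). In the other direction, XTH7 had −2.48, −2.35 and −2.42 in the fl mutant and 2.35, 2.36 and 2.36 in WT (log2 −4.78, SE 0.0476, adjusted p = 3.92e-08). XTH29 fell 16.1-fold (adjusted p = 2.06e-07), and EXGT-A1 (XTH4) and EXGT-A4 (XTH5) fell by 2.72 (SE 0.093) and 2.65 (SE 0.222) on the log2 scale. Members of 1 enzyme family thus stood at opposite ends of the range.

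Pectin enzymes were divided likewise, with 8 of 39 probe sets higher, 10 lower and a median of 0.17. The pectate lyase-like match AT4G24780, which would cleave de-esterified pectin, had −2.44, −1.98 and −2.18 in the fl mutant and 1.98, 2.06 and 2.04 in WT (log2 −4.23, SE 0.113, adjusted p = 7.37e-07). AT2G36710, of a pectin lyase-like family, was 15.9-fold lower (adjusted p = 3.72e-07), and 2 probe sets from one cluster of pectinesterase-like sequences were at −4.26 (SE 0.108) and −4.25 (SE 0.133). All but AT4G24780 of these 4 were uncalled at 10 dpa. The largest rises belonged to AT5G62350 and AT4G02300, both annotated with pectin methylesterase inhibitor domains, at 3.60 (SE 0.0621) and 3.10 (SE 0.0449). AT3G61490, another pectin lyase-like match, rose by 3.08 (SE 0.0441).

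The supply of wall sugars changed in 4 of 15 precursor probe sets. Sucrose synthase SUS4, which splits sucrose into fructose and the UDP-glucose used for cellulose, had −2.33, −2.29 and −2.37 in the fl mutant and 2.40, 2.53 and 2.29 in WT (log2 −4.74, SE 0.0692, adjusted p = 8.67e-08). UGP, a UDP-glucose pyrophosphorylase, was at −3.49 (SE 0.142), and a UDP-glucose dehydrogenase (AT5G39320), which opens the route to pectin and hemicellulose sugars, was at −1.64 (SE 0.0428). GAE1, an epimerase that makes the galacturonate precursor of pectin, rose by 1.76 (SE 0.0514). The remaining 11 of the 15 precursor probe sets were not called.

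Of 9 cellulose synthase probe sets 4 fell and none rose, and all 4 match the synthases of the Arabidopsis secondary wall. IRX3 (CESA7) had −1.57, −1.25 and −1.31 in the fl mutant against 1.25, 1.26 and 1.33 in WT, a log2 fold of −2.66 (SE 0.0895, adjusted p = 2.01e-06), and −2.48 (SE 0.0451) by a second probe set. CESA4 followed at −2.31 (SE 0.0784) and CESA8 at −1.94 (SE 0.106). None of the 4 was called at 0 or 10 dpa, where for example the first IRX3 probe set stood at 0.25 and 0.10. All 4 had a difference at 15 dpa that was below the one at 0 dpa in the interaction fit described further on. So had 370 of all 458 lower DETs, against 2.16% of all probe sets. For DETs, chosen by their value at 15 dpa, this follows in part from the choice. POM1, a chitinase-like protein needed for cellulose deposition in Arabidopsis, fell by 2.42 (SE 0.116) after 0.63 at 10 dpa. The transcription factors NST1 and MYB85, which switch on secondary wall genes in Arabidopsis fibres, fell as well. NST1 had −1.29, −1.24 and −1.50 in the fl mutant and 1.71, 1.32 and 1.24 in WT (log2 −2.77, SE 0.138, adjusted p = 1.13e-05). MYB85 was at −1.28, −1.42 and −1.59 in the fl mutant and at 1.47, 1.28 and 1.31 in WT (log2 −2.78, SE 0.0934, adjusted p = 2.01e-06). Neither was called at 0 or 10 dpa.

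Among genes for the lipids of the cell surface, most calls were to the lower side. Of 22 probe sets for very long chain fatty acid synthesis 14 (63.6%) were lower, none was higher and 8 were not called, with a median of −2.06, and 3 of 4 wax synthesis probe sets were lower. CUT1 (KCS6), the condensing enzyme that makes wax precursors, had −2.59, −2.77 and −2.50 in the fl mutant and 2.50, 2.51 and 2.57 in WT, or 35.5-fold (log2 −5.15, SE 0.074, adjusted p = 8.45e-08). AT3G06470, an elongase-like membrane protein, was at −4.62 (SE 0.0787), KCS11 at −3.56 (SE 0.0781) and the beta-ketoacyl reductase YBR159 of the same elongation cycle at −2.92 (SE 0.0819). FLP1 (CER3), of wax alkane synthesis, fell by 5.06 (SE 0.132), and CER4, which reduces fatty acyl chains to alcohols, fell by 3.16 (SE 0.0584). In the other direction CER1, which the study lists with abscisic acid genes and not in these lists, rose by 3.39. WBC11, an ABC transporter that exports wax and cutin precursors (picked after its values were seen), was at −2.11 (SE 0.0613). CUT1, FLP1, ACY and WBC11 belong to the 24 probe sets that were lower at 0, 10 and 15 dpa alike, and so do 4 RD22 probe sets and UGP.

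Among 23 lipid transfer proteins, which carry lipids to the cuticle or sit on the outer membrane face, 10 fell, 1 rose and 12 were not called, with a median of −1.41. AT3G22600, a lipid transfer-like protein, had −3.23, −2.89 and −3.35 in the fl mutant against 2.93, 2.89 and 2.90 in WT, or 66.9-fold (log2 −6.06, SE 0.114, adjusted p = 1.94e-07). It was the opposite at 10 dpa, when it was higher in the fl mutant by 3.72. LTP1 (LP1) fell by 3.33 (SE 0.0479), and AT1G55260 rose by 2.68 (SE 0.0538). FAD3, the desaturase that makes linolenic acid, fell by 2.33 (SE 0.0523), and SBH2, a sphingoid base hydroxylase, by 2.97 (SE 0.0532). GLIP1, a secreted GDSL lipase, had −3.22, −2.72 and −3.20 in the fl mutant and 2.72, 2.84 and 2.80 in WT (log2 −5.83, SE 0.137, adjusted p = 4.21e-07). The probe sets matched to GLIP1 did not move together, another being at −4.24 (SE 0.162) and 3 at 1.67 to 2.58. RD20, a calcium-binding caleosin of oil bodies that responds to drought and abscisic acid, had the same log2 fold of −5.83 (SE 0.0719).

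Transcripts of the cytoskeleton, which guides vesicles and cellulose in the elongating cell, fell in 7 of 34 probe sets and rose in none, with a median of −0.35. Beta-tubulin TUB6 had −2.06, −2.28 and −2.18 in the fl mutant and 2.06, 2.15 and 2.14 in WT (log2 −4.29, SE 0.065, adjusted p = 9.15e-08). Profilin PRF5, which feeds actin filaments, was at −2.83 (SE 0.0632), tubulin TUB8 at −2.32 (SE 0.0527) and actin ACT3 at −1.71 (SE 0.0592). At 10 dpa 30 of these 34 had been lower, against 6.55% of all probe sets. Water channels were mixed, with 4 of 17 higher and 2 lower, and the vacuolar channel gamma-TIP rose in 3 probe sets, by up to 2.56 (SE 0.0945), and fell in 2, by up to 2.76 (SE 0.0649).

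**Figure D2:**
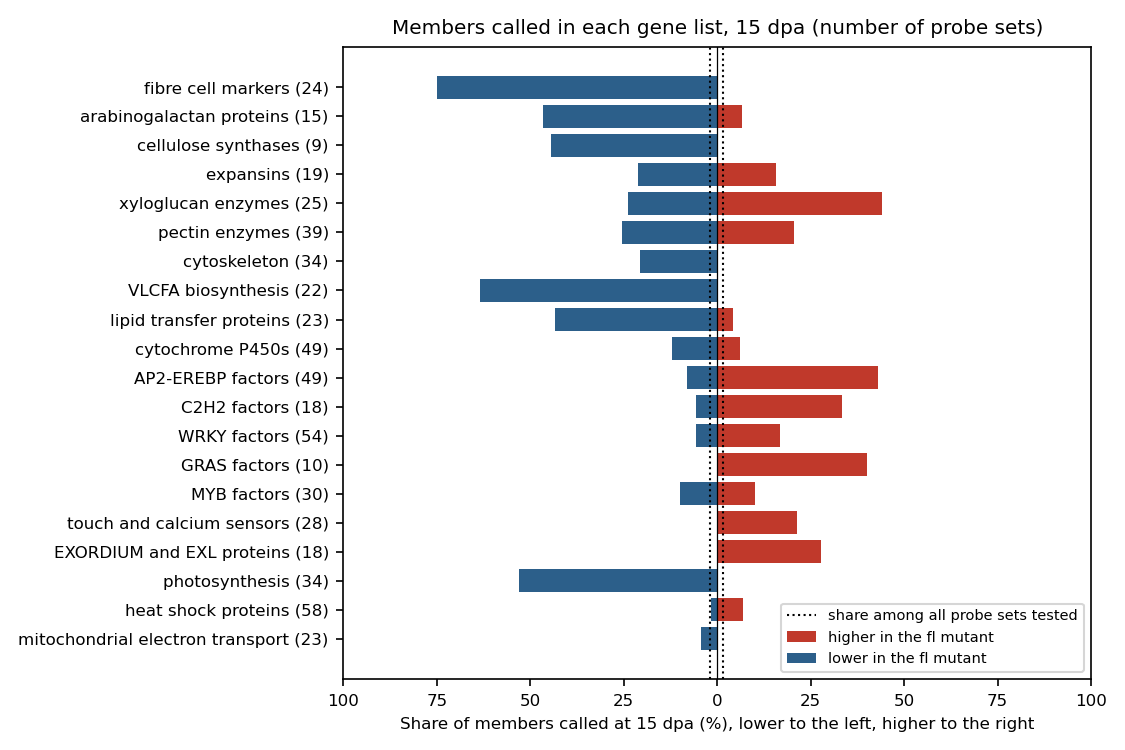
Share of the probe sets of each gene list (rows, with the number of probe sets) that were DETs at 15 dpa, as a percentage, with those lower in the fl mutant in blue to the left and those higher in red to the right. Dotted lines mark the shares over all probe sets tested, 1.91% lower and 1.52% higher. They are not a like base, since all list members come from the study's tables of transcripts called different at some stage. Fibre markers, fatty acid elongation and photosynthesis reach only to the left, and GRAS factors, touch and calcium sensors and EXORDIUM proteins only to the right.

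Cytochrome P450s and hormone genes had calls in both directions. Of 49 P450 probe sets 6 fell and 3 rose. BAS1, which inactivates brassinosteroids, had −1.99, −2.15 and −2.06 in the fl mutant and 1.99, 2.12 and 2.05 in WT (log2 −4.12, SE 0.0611, adjusted p = 8.84e-08). CYP83B1 and CYP79B2, which act in turn on the indole route from tryptophan, were at −4.64 (SE 0.0495) and −2.95 (SE 0.0569), but of 3 further CYP83B1 probe sets 2 fell, each by 1.63, and 1 rose by 2.77 (SE 0.0765). GA3, an oxidase of gibberellin synthesis, rose by 2.36 (SE 0.133), while the gibberellin receptor GID1C had −2.11, −2.25 and −1.97 in the fl mutant and 2.00, 2.00 and 1.97 in WT (log2 −4.10, SE 0.0753, adjusted p = 1.80e-07). AIR1, induced by auxin in Arabidopsis roots, fell by 4.48 (SE 0.123) without a call at 0 or 10 dpa.

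By hormone, the lists of the study gave these counts, and no difference between lists was tested. Salicylic acid transcripts had 27 higher and 2 lower of 122, whereas auxin transcripts had 20 higher and 30 lower of 212 and ethylene transcripts 22 and 30 of 162. Abscisic acid (41 higher and 38 lower of 287), jasmonic acid (13 and 15 of 86), brassinosteroid (15 and 10 of 131), gibberellin (12 and 8 of 81) and cytokinin (3 and 5 of 49) were counted in the same way, and every list median lay between −0.03 and 0.32. A transcript can sit in several of these lists. In the salicylic acid list UGT74F2, which attaches glucose to salicylic acid, had 1.88, 1.85 and 1.94 in the fl mutant and −1.85, −1.93 and −2.12 in WT (log2 3.86, SE 0.0766, adjusted p = 2.36e-07). BAP2, an inhibitor of cell death in Arabidopsis, was at 3.93 (SE 0.129) in the same list. GRX480, a glutaredoxin induced by salicylic acid in Arabidopsis, was at 2.82 (SE 0.11). ACS6, the synthase of the ethylene precursor, had 2.16, 2.23 and 2.19 in the fl mutant and −2.24, −2.24 and −2.16 in WT, a log2 fold of 4.40 (SE 0.0463, adjusted p = 4.13e-08).

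The jasmonate enzymes LOX4 and LOX3 rose by 3.11 (SE 0.0567) and 2.27 (SE 0.0536) and the next enzyme of the route, AOS, by 2.43 (SE 0.119), while LOX1, a lipoxygenase of another branch, fell by 1.87 (SE 0.0434). MYC4 (AT4G17880), a bHLH factor that carries out the jasmonate response, was at 2.62 (SE 0.0501). Of 19 probe sets for jasmonate synthesis and its JAZ repressors 5 rose, 1 fell and 13 were not called, JAZ9 among the last at 1.39 (SE 0.0457). The Aux/IAA repressor AUX2-11 had 2.01, 2.22 and 2.09 in the fl mutant and −2.42, −2.01 and −2.08 in WT (log2 4.27, SE 0.118, adjusted p = 8.42e-07).

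Transcription factors of the stress and wound response were prominent on the higher side. Of 49 AP2-EREBP probe sets 21 (42.9%) rose and 4 fell, with a median of 1.13. RRTF1, a factor induced by wounding and reactive oxygen in Arabidopsis, had the largest rise of the family. It stood at 2.90, 2.92 and 2.97 in the fl mutant and at −3.37, −2.93 and −2.90 in WT, or 63.6-fold (log2 5.99, SE 0.129, adjusted p = 3.00e-07). A member of the same family matched to AT1G19210 had 2.86, 2.90 and 2.79 in the fl mutant and −2.79, −2.91 and −2.85 in WT (log2 5.69, SE 0.0542, adjusted p = 3.92e-08). AT5G51190 was at 4.64 (SE 0.0503) and ERF5 at 4.20 (SE 0.103). The family members that fell were led by RAP2.1 at −2.53 (SE 0.0906), a repressor of cold and drought genes, and ERF-1 at −1.91 (SE 0.0655), although a second ERF-1 probe set rose by 2.01 (SE 0.214).

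C2H2 zinc finger factors rose in 6 of 18 probe sets and fell in 1. STZ had 2.59, 2.63 and 2.61 in the fl mutant and −2.87, −2.59 and −2.95 in WT (log2 5.41, SE 0.0946, adjusted p = 1.46e-07). ZAT6 had 2.52, 2.62 and 2.61 in the fl mutant and −3.38, −2.55 and −2.52 in WT, where 1 array stood well below the other WT arrays (log2 5.39, SE 0.229, adjusted p = 5.54e-06). AT2G28710 was at 5.04 (SE 0.0595), while AT2G28200 fell by 2.24 (SE 0.0932). In the study's WRKY list 9 of 54 probe sets rose and 3 fell. WRKY factors bind the W box of defence genes, but the called members AT5G17680 (3.94) and AT3G14840 (−1.76) carry no WRKY name here. WRKY40 had 2.31, 2.28 and 2.17 in the fl mutant and −2.36, −2.17 and −2.84 in WT (log2 4.71, SE 0.165, adjusted p = 2.40e-06), and WRKY70, which sits between the salicylic acid and jasmonate pathways, was at 3.37 (SE 0.0756). WRKY19 led the probe sets that fell, at −3.86. GRAS factors rose in 4 of 10, led by PAT1 of phytochrome signalling at 3.41 (SE 0.0456) and SCL5 at 2.32 (SE 0.0643).

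MYB and homeobox factors, among which lie the regulators of epidermal hairs, moved in few members. Of 30 MYB probe sets 3 rose and 3 fell. MYB60, which controls stomatal opening in Arabidopsis, had −1.56, −2.01 and −1.71 in the fl mutant and 1.56, 1.87 and 1.98 in WT (log2 −3.56, SE 0.149, adjusted p = 5.16e-06). MYB5, of trichome and seed coat development, fell by 1.94 (SE 0.064). MYB106, of the MIXTA type that shapes epidermal cells, rose by 1.84 (SE 0.0498), but its relative MYB16 was not called at 0.66 (SE 0.178, adjusted p = 0.0244). MYB16 had 0.15, 0.32 and 0.86 in the fl mutant and −0.20, −0.15 and −0.29 in WT. MYB73 rose by 4.14 (SE 0.0615). HOX3, matched to Arabidopsis HDG11 and known to promote fibre elongation in cotton, had −0.99, −1.11 and −1.28 in the fl mutant and 1.05, 1.07 and 0.99 in WT (log2 −2.16, SE 0.0774, adjusted p = 2.62e-06). Of 26 homeobox probe sets 2 rose and 2 fell, and of 15 NAC probe sets 1 rose (ATAF1 at 1.91, SE 0.0795) and NST1 fell.

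Of 28 touch and calcium sensor probe sets 6 rose, none fell and 22 were not called, with a median of 0.20. AT4G27280, an EF-hand calcium-binding protein, had 2.25, 2.23 and 2.25 in the fl mutant and −2.35, −2.23 and −2.50 in WT (log2 4.60, SE 0.0736, adjusted p = 1.15e-07). AT3G63380, a calcium pump of the plasma membrane type, had 2.29, 2.40 and 2.44 in the fl mutant and −2.43, −2.65 and −2.29 in WT (log2 4.83, SE 0.0973, adjusted p = 2.52e-07). TCH2, a calmodulin-like touch protein, stayed under the fold threshold at 1.36 (SE 0.0452), and calmodulin CAM1 was at −0.07 (SE 0.114, adjusted p = 0.685). EXO, which responds to brassinosteroids and promotes cell expansion in Arabidopsis, had 2.52, 2.45 and 2.41 in the fl mutant and −2.41, −2.60 and −2.53 in WT, or 31.4-fold (log2 4.97, SE 0.0649, adjusted p = 7.24e-08). Of 18 EXORDIUM and EXL probe sets 5 rose, none fell and 13 were not called. YLS9, a membrane protein induced in senescence and defence, rose by 4.77 (SE 0.14).

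The transcripts that mark touched or wounded tissue, a list of 41 probe sets that holds TCH4, EXO, WRKY40, RRTF1, STZ and the JAZ genes named above, had 21 higher (51.2%) and none lower, with a median of 1.67. Their summed centred values were 46.3 to 47.2 in the fl mutant arrays and −50.0 to −46.5 in the WT arrays, all arrays of a genotype alike. The 41 probe sets carry 13 names. At 10 dpa 29 of them had been lower and 3 higher, with a median of −2.37. At 0 dpa 22 had been lower and none higher, with a median of −1.74. The sources used here do not say at what hour or how the bolls of each genotype were picked before freezing, and the part of touch or wounding in the higher DETs was not tested.

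Markers of the other tissues in an ovule were also counted. The storage protein beta-globulin, made by the embryo, had 0.07, −0.33 and −0.07 in the fl mutant and 0.11, −0.07 and 0.07 in WT (log2 −0.15, SE 0.11, adjusted p = 0.334), with the genotypes overlapping. Of 9 embryo storage and late embryogenesis probe sets 4 rose and 1 fell, and those that rose match YLS9, the related protein AT2G27080 and LEA14, none of them a storage protein. LEA14, at 1.60 (SE 0.0666), fell below the fold threshold when fl mutant replicate 3 or WT replicate 1 was left out, and so did the one that fell, a cupin at −1.60, without fl mutant replicate 2 or WT replicate 1 or 3. Seed coat flavonoid enzymes fell in 3 of 20 probe sets, led by chalcone synthase CHS at −3.24 (SE 0.0556), and the list median was 0.13. The flavonoid P450 TT7, counted above with the P450s and not in this list, rose by 1.74. Histones and cell cycle proteins fell in 1 of 11. Photosystem and light harvesting proteins fell in 7 of 21 with none higher, a median of −1.28 and summed values of −13.0 to −11.0 in the fl mutant arrays and 10.3 to 12.4 in the WT arrays. In the study's wider photosynthesis list 18 of 34 fell and none rose, with a median of −1.65. The small subunit of Rubisco had −1.41, −1.35 and −1.30 in the fl mutant and 1.30, 1.53 and 1.59 in WT (log2 −2.82, SE 0.0841, adjusted p = 1.18e-06), and the light harvesting protein LHCB2.1 was at −2.26 (SE 0.0899). All called green tissue markers fell, as did all called fibre markers, whereas the lists of wall-loosening proteins held calls in both directions. The part of green tissue in the lower DETs was not tested.

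Heat shock proteins, mitochondrial electron transport and sugar synthesis, which differed widely at 10 dpa, changed in few probe sets at 15 dpa. Of 58 heat shock protein probe sets 4 rose and 1 fell (44 had been lower at 10 dpa). Of 23 mitochondrial electron transport probe sets 1 fell (18 lower at 10 dpa). Of 15 for raffinose and trehalose sugars 1 rose and 1 fell (11 lower at 10 dpa). Over all probe sets 6.55% were lower at 10 dpa, which is not a like base for these lists of transcripts called at some stage. The small heat shock protein HSP18.2, at −7.16 at 10 dpa, had 0.83, 0.76 and 0.84 in the fl mutant and −0.77, −0.76 and −0.76 in WT at 15 dpa, which at a log2 fold of 1.58 (SE 0.0432) lay just under the threshold. HSP90.1 was at 0.18 (SE 0.0397) after −5.98 at 10 dpa. The largest called rise in the heat shock list was in the AT2G17880 match at 4.27, and the 1 that fell was HSBP at −2.84. The galactinol synthases GolS2 and GolS1, which begin raffinose synthesis, differed in sign at 2.00 (SE 0.0692) and −1.91 (SE 0.0957).

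Whether the genotype difference at 15 dpa itself departed from that at an earlier stage was tested in a single limma fit of all 30 arrays, as the contrast between the log2 folds of 2 stages with the same p and a 3-fold ratio. Stages have their own arrays of both genotypes, so no array is shared between them. Relative to 10 dpa the difference at 15 dpa was more positive for 1719 probe sets (7.15%) and more negative for 1303 (5.42%), or 12.6% in either direction. Relative to 0 dpa it was more positive for 749 (3.12%) and more negative for 519 (2.16%), or 5.28% in either direction. The DETs of 15 dpa were placed on this background: of the 366 higher ones 291 were above their value at 10 dpa and 329 above that at 0 dpa, and of the 458 lower ones 213 were below 10 dpa and 370 below 0 dpa. Because a DET has a large value at 15 dpa, shares above the background follow in part from the choice.

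Directions turned over most often on the higher side. Of the 366 higher DETs 141 had been lower at 10 dpa, 181 had not been called and 44 had been higher. Against 0 dpa the counts were 153 lower, 204 not called and 9 higher, and 88 DETs were lower at both of these stages. Over all probe sets 6.55% were lower at 10 dpa and 1.39% at 0 dpa. The share lower at both of these stages was not counted. TCH4 is 1 of the 88, at −7.02 at 0 dpa, −6.50 at 10 dpa and 5.58 at 15 dpa, so that its difference at 15 dpa exceeded that at 10 dpa by 12.08 (SE 0.146, adjusted p = 8.02e-28). The AT1G19210 match had −5.92, −6.62 and 5.69 at these stages (15 minus 10 dpa 12.32, SE 0.143, adjusted p = 3.72e-28), and EXO had −4.46, −5.77 and 4.97 (10.74, SE 0.235, adjusted p = 1.12e-22). ERF5, AT5G51190 and ACS6 took another course, being low at 0 dpa (−4.57, −6.11 and −3.43), not called at 10 dpa (0.93, 1.58 and −0.69) and high at 15 dpa, and a second ERF5 probe set was already higher at 10 dpa (2.19).

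**Figure D3:**
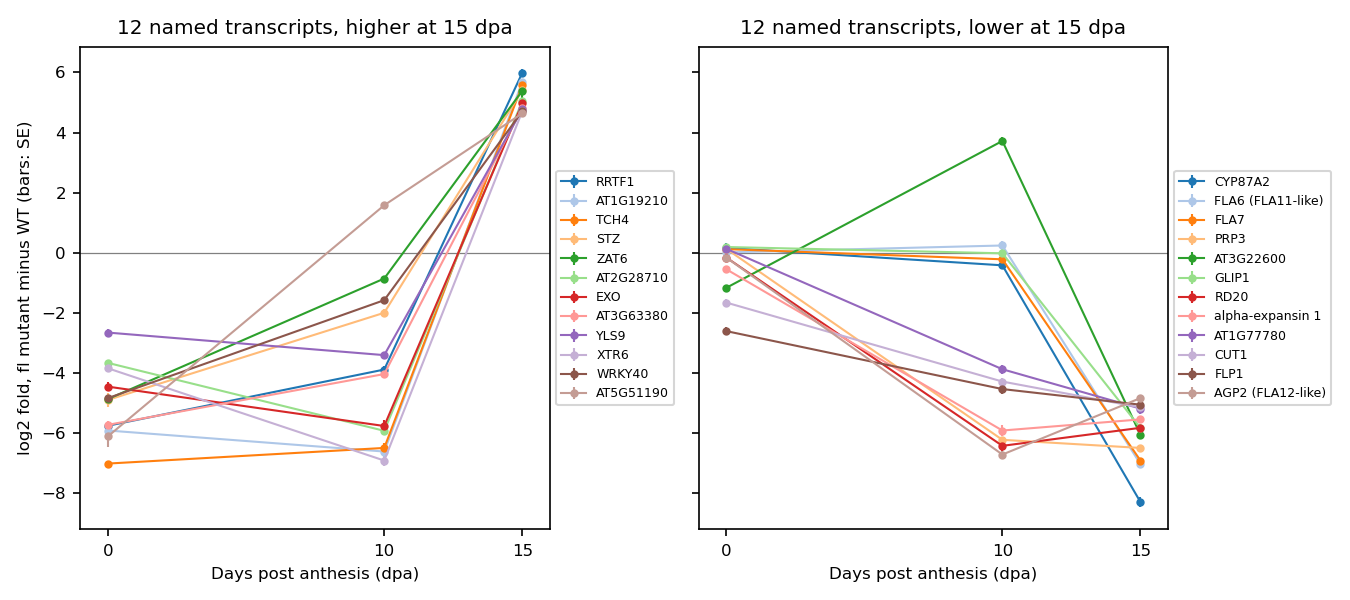
Log2 fold, fl mutant minus WT, at 0, 10 and 15 dpa for the 12 named transcripts with the largest fold at 15 dpa that were higher (left) and lower (right), with SE bars. All 12 on the left lie below zero at 0 dpa and above 4.6 at 15 dpa. On the right, CYP87A2, FLA6, FLA7 and GLIP1 lie near zero until 10 dpa, and AT3G22600 alone is above 3 at 10 dpa.

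The lower DETs were steadier against 10 dpa and mostly new against 0 dpa. Of the 458, 202 were already lower at 10 dpa, 204 were not called there and 52 were higher. At 0 dpa 42 were lower, 415 were not called and 1 was higher. Over all probe sets 4.91% were higher at 10 dpa and 0.154% at 0 dpa. The DETs lower at both 10 and 15 dpa include PRP3, alpha-expansin 1, RD20 and AGP2, for which the difference between the stages was −0.26 (adjusted p = 0.292), 0.37 (adjusted p = 0.079), 0.60 (adjusted p = 0.0339) and 1.88 (adjusted p = 3.02e-13), with the last one thus less negative at 15 dpa. A group of 188 was called at neither 0 nor 10 dpa. CYP87A2, FLA6, FLA7, GLIP1, AIR1, the CESA4, CESA7 and CESA8 matches, NST1 and MYB85 belong to it. The difference at 15 dpa minus that at 10 dpa was −7.88 for CYP87A2 (SE 0.295, adjusted p = 7.00e-18) and −7.28 for FLA6 (SE 0.18, adjusted p = 1.22e-21).

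A smaller set of 52 was higher at 10 dpa and lower at 15 dpa. AT3G22600 leads it, and of those described next TBL38, RNS3, BGAL1 and CCOAMT were picked after their values were seen. TBL38, of a family that adds acetyl groups to wall polymers, was at −4.81 (SE 0.0758) after 3.02 at 10 dpa, and the extracellular ribonuclease RNS3 was at −4.22 (SE 0.146) after 1.82. PGIP1, which inhibits fungal pectinases, was at −3.65 (SE 0.0599) after 3.72. BGAL1, a beta-galactosidase, was at −3.26 (SE 0.0458) after 2.13, and caffeoyl-CoA methyltransferase CCOAMT, of phenylpropanoid metabolism, was at −3.50 (SE 0.0422) after 2.80. XTH29, already described, was at 2.05 at 10 dpa.

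**Figure D4:**
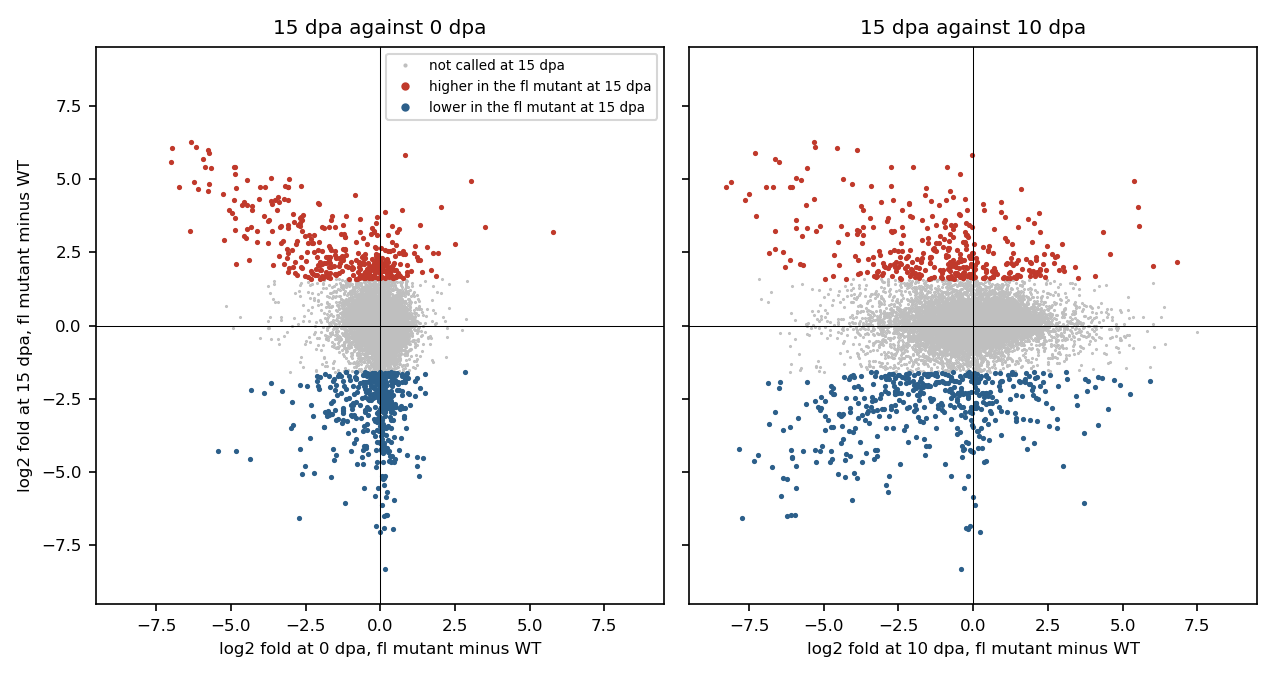
Log2 fold at 15 dpa (vertical) against that at 0 dpa (left) and 10 dpa (right), fl mutant minus WT, for all 24029 probe sets, with DETs higher at 15 dpa in red, DETs lower at 15 dpa in blue and the rest in grey. On the left, lower DETs gather near a fold of zero at 0 dpa and many higher DETs lie well to the left, 153 of 366 being called lower there.

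Many of the strongest DETs could not be named here. The annotation tables, of which 1 was held only in part, give an Arabidopsis match for 460 of the 824 DETs (234 higher and 226 lower), list 70 with none and do not hold the other 294. Those described next were picked after their values were seen. The largest rise of any probe set was in a protein of unknown function matched to AT4G29780, with 2.93, 2.99 and 3.00 in the fl mutant and −3.63, −2.93 and −3.27 in WT (log2 6.25, SE 0.166, adjusted p = 7.17e-07), followed by a match to AT5G12010 at 6.09 (SE 0.0483). Among probe sets with no match in the tables held, that with the largest rise had 2.88, 2.79 and 2.82 in the fl mutant and −3.32, −2.79 and −2.81 in WT (log2 5.81, SE 0.145, adjusted p = 5.54e-07) and was near zero at 10 dpa (−0.04). Among the lower ones with no match in these tables, the first was at −6.84 (SE 0.0937) after −0.10 at 10 dpa. The next was at −6.57 (SE 0.0658), with −2.71 at 0 dpa and −7.73 at 10 dpa. The 5 probe sets that were higher at all 3 stages likewise have no name in the tables held, led by one at 3.04, 5.40 and 4.91.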

How the data were processed

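The authors summarised the array scans by RMA (background correction, quantile normalization, median polish) in GeneSpring GX 11.5, and the deposited log2 values carry, as the values show, a further shift that sets the middle of each probe set's 6 arrays of a stage to 0. No level, filter on dim probe sets or comparison of levels was therefore possible. Control probe sets of the array maker (103 of 24132) did not enter any fit.

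limma 3.58.1 (R 4.3.3, lmFit and eBayes) was fitted to the 6 arrays of 15 dpa, and to all 30 arrays for differences between stages, with Benjamini-Hochberg adjustment over 24029 probe sets. It was tested on simulated data. Arrays of 5 and 20 dpa were not compared, since the direction of their labels is in doubt. The replicates are biological by the series' description, but what a replicate pooled is not given in the sources used here.

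Names come from the study's supplementary tables (2367 probe sets, 2098 with an Arabidopsis match, 1 table held in part). Named are, of the transcripts with a name in these tables, the 12 largest folds per direction, up to 4 per direction in each list, and the qRT-PCR and stress table transcripts. Probe sets whose ID ends in _s_at, _x_at or _a_at can match several transcripts. Members, lists, 14 of them built here from annotation words, and tests were chosen with earlier results of these data known. Every list, those 14 included, holds only probe sets from the study's tables of transcripts called different at some stage. Counts used Python 3.11.15 (pandas 2.3.3, numpy 2.4.6), and figures matplotlib 3.10.9.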

Additional observations from a re-analysis of the deposited data

Results flagged for a closer look

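Values were picked out where the genotype difference at 15 dpa departed from that at an earlier stage by the test of the difference itself, in the limma fit of all 30 arrays. Over all probe sets the difference was above that at 10 dpa for 1719 and below it for 1303, and above that at 0 dpa for 749 and below it for 519.

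Among the 24 named transcripts with the largest folds, 13 were DETs in opposite directions at 15 dpa and at an earlier stage. The log2 difference at 15 dpa minus that at 10 dpa, and minus that at 0 dpa, was 9.88 and 11.75 for RRTF1, 12.32 and 11.62 for the AT1G19210 match, 12.08 and 12.60 for TCH4, 7.41 and 10.32 for STZ, 10.97 and 8.71 for AT2G28710, 10.74 and 9.43 for EXO, 8.88 and 10.56 for AT3G63380, 8.18 and 7.43 for YLS9, and 11.63 and 8.56 for XTR6. Only the comparison with 0 dpa ran between opposite calls for ZAT6 (10.27), WRKY40 (9.55) and AT5G51190 (10.75), and only that with 10 dpa for AT3G22600 (−9.79).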

How the results depend on the processing

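The share of DETs that were lower changed side at a fold of 2 (870 higher, 866 lower, 49.9%) and with limma's treat against a fold of 1.5 (938, 898 and 48.9%), so the majority rests on the fold threshold. Among the 12727 probe sets without an ID suffix 171 were higher and 233 lower, because fewer were tested. With a ratio of 2 the stage contrast gave 2808 above and 2908 below 10 dpa, and 1609 above and 1281 below 0 dpa. Leaving out 1 array at a time gave 363 to 380 higher, 456 to 463 lower and a lower share of 54.5 to 55.9%, and for the stage contrasts 1711 to 1729 and 1303 to 1324 against 10 dpa and 735 to 751 and 509 to 523 against 0 dpa. Replicate numbers did not pair the arrays (correlations of 0.001 to 0.039), and with a replicate block 366 were higher and 458 lower, a share of 55.6%, with 1719, 1303, 749 and 519 in the stage contrasts. The methods' t-test called 361 higher and 456 lower.

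Of 270 named transcripts 214 were called, and 199 of these kept the call in every alternative that tested them. None of the other 15 changed sign. TCH2, HSP18.2 and HSFA2 were called only at the smaller folds, and HSP18.2 also without fl mutant replicate 2. With 3 arrays per genotype and centred values, small differences and dim transcripts cannot be judged.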
